A study of Mus musculus with 131 samples.

Results

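Hepatocytes of mice labelled as deleted at birth for the methylcytosine dioxygenases *Tet2* and *Tet3* were compared with hepatocytes of injected controls by RNA-Seq. Genes whose mean reached 1 FPKM (fragments per kilobase of transcript, scaled to the library's reads) in either group were followed, which were 9913 of the 24397 genes in the expression table. Of these, 16 were left out because they went from 0 in some library to over 100 FPKM elsewhere, so 9897 were tested. The study asked whether DNA that loses its methyl groups in liver after birth does so through TET enzymes and whether this affects gene expression. All mice were C57Bl. Floxed Tet2F/Tet3F mice (DKO) received at 1 day of age an adeno-associated virus (AAV8) carrying Cre, and were taken at 15 weeks. The controls, labelled WT with CRE at 1 day, were injected at the same age and taken at 15 weeks. Cre was driven by the Tbg promoter, which is active in hepatocytes, so other liver cells were not targeted. Hepatocytes were obtained by perfusion and a percoll gradient, and cells without CD45 at the surface were sorted. Each group had 3 libraries, called here controls A to C and DKO A to C in the order of the table's columns. The labels do not say whether the libraries of a group came from separate litters, so each test measures the spread between these libraries.

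TET proteins oxidise 5-methylcytosine, a first step by which a methylated CpG can become unmethylated. Hepatocytes change their expression programme in the weeks after birth, as genes of drug, steroid and amino acid metabolism come up and fetal genes are shut off. They also come to differ along the liver lobule, between the periportal end and the perivenous end around the central vein, where Wnt signalling keeps its target genes active, and between males and females, under control of the pattern of growth hormone release.

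The libraries were checked before the comparison. Read counts were not given. From the spacing of the smallest FPKM values, the depth of the other libraries relative to control A was between 0.809 and 0.985. All 6 libraries held the Y-linked genes *Ddx3y*, *Eif2s3y*, *Kdm5d* and *Uty* and at most 0.0350 FPKM of *Xist*, so they had the male pattern. The summed level of 14 hepatocyte markers was 37596 to 44433 FPKM in the controls and 39256 to 48746 FPKM in DKO, although *Alb*, the albumin gene, was listed at 0 in every library. Markers of other cells were summed in the same way. The sums over the macrophage and Kupffer cell list were 10.8 to 18.9 FPKM in the controls and 4.23 to 8.33 FPKM in DKO, and those of the endothelial list 15.2 to 24.6 and 10.3 to 16.5 FPKM. For the lymphocyte list they were 0.366 to 0.760 FPKM against 0.0368 to 0.145 FPKM. The erythroid list summed to 54.7 to 72.0 FPKM against 13.9 to 17.3 FPKM, nearly all of it from *Alas2*, which makes heme in red cell precursors and was called lower (log2 difference of DKO from controls -2.11, limma adjusted p = 0.000316), while globin genes were at most at 1.02 FPKM and Gata1 and Slc4a1 at 0. The macrophage and lymphocyte sums were thus lower in every DKO library than in any control. So was the erythroid sum, through *Alas2*. An entry of the globin gene *Hba-a1* was at 0.731, 0.0166 and 0.0560 FPKM in controls A to C. In DKO A to C it was at 0.537, 0.494 and 0.857 FPKM. The endothelial, stellate, cholangiocyte and neutrophil sums overlapped. The stellate sum was 10.9, 44.7 and 23.8 FPKM in controls A to C and at most 20.4 FPKM in DKO. The cholangiocyte sums were 17.4 to 26.4 FPKM in the controls and 13.3 to 17.8 FPKM in DKO. The neutrophil sums were 0.126 to 0.181 FPKM in the controls and 0.150, 0.0425 and 1.71 FPKM in DKO A to C. What part these other cells had in the results was not tested. In a bulk sample, fewer cells of a type and less RNA per cell cannot be told apart.

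The expression of the targeted genes did not show their loss in the libraries of deletion at 1 day. *Tet2* was at 2.13, 1.63 and 0.890 FPKM in controls A to C and at 4.08, 2.82 and 3.16 FPKM in DKO A to C. All 3 libraries labelled DKO were above the controls (log2 difference 0.79, SE 0.199, adjusted p = 0.0373). This call was lost without DKO A, DKO C, control B or control C, when the log2 difference was 0.67, 0.82, 0.83 and 0.59. *Tet3* was at 2.11, 2.55 and 1.68 FPKM in the controls and at 2.78, 1.74 and 2.65 FPKM in DKO, with overlapping libraries (0.12, SE 0.162, adjusted p = 0.621). *Tet1*, the third member of the family, did not exceed 0.00717 FPKM in any of these libraries. In the libraries of deletion at 3 weeks, *Tet2* was at 1.84 and 0.824 FPKM, against 2.56, 2.08 and 2.99 FPKM in their controls. *Tet3* was at 1.67 and 1.56 FPKM there, against 2.55, 2.89 and 2.44 FPKM. The FPKM of a gene includes exons outside the floxed segment, and the deleted exons are not given in the sources used here, so these values do not measure the deletion. The study reports preliminary control experiments in which the virus efficiently deleted its targets. The labels are used below for the groups as given.

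The DNA of these genes was examined by whole-genome bisulfite sequencing (WGBS), with 1 library each of newborn WT, adult WT and DKO hepatocytes. The tiles shown here, of 200 bp, lost methylation between the newborn and the adult and kept it in DKO. Each is the kept tile with the largest fall to the adult level in its gene, for 3 genes among the largest falls in expression and for 1 among the largest rises, and these genes were chosen after their values were seen. Each lies in an intron of its gene in mm9 (NCBIM37), is printed on the plus strand and has its CpG dinucleotides in capitals.
Cyp2e1: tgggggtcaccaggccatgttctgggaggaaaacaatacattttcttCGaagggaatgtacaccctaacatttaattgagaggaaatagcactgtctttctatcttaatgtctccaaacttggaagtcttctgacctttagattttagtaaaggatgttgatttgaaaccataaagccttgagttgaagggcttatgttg
Nr1i3: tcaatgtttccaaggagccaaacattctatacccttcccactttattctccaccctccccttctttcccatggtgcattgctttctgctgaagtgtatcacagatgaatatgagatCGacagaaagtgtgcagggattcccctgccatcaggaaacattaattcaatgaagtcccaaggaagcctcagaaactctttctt
Cyp2c37: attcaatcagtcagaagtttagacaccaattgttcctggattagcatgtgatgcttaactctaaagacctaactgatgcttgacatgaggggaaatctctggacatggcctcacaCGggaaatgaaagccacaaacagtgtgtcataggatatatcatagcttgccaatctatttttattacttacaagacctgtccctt
Cyp2b9: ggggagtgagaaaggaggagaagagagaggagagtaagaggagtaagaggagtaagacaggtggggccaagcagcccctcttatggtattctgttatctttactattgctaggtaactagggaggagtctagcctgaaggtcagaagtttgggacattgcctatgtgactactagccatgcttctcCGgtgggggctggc
The *Cyp2e1* tile (chr7:147953801-147954000), 4170 bases from the gene start, was methylated to 76.9% in the newborn, 19.0% in the adult and 79.2% in DKO. The *Nr1i3* tile (chr1:173146201-173146400), 2200 bases from the start, had 94.7%, 20.0% and 77.3%. In the *Cyp2c37* tile (chr19:40067401-40067600), 587 bases from the start, methylation was 60.7%, 0% and 53.8%. The *Cyp2b9* tile (chr7:26968801-26969000), 10473 bases from the start, had 81.2%, 23.1% and 90.0%.

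Many genes differed between the libraries labelled DKO and the controls, and before rescaling more were lower than higher. With limma on log2(FPKM + 1) and Benjamini-Hochberg adjustment, 1225 of the 9897 genes (12.4%) were lower in DKO and 373 (3.77%) were higher at an adjusted p under 0.05. An unadjusted p under 0.05 was found for 3687 genes. Genes called lower had a median log2 difference of -0.69, with quartiles of -0.95 and -0.54, and 270 of them fell by at least 1 log2 unit. Those called higher had a median of 0.75, with quartiles of 0.56 and 1.10, and 118 rose by at least 1. In none of the 1598 called genes did the libraries of the groups overlap. With so few libraries per group a call largely requires this, so it is no separate check. A gene under 1 FPKM in 1 group entered the test through the other, so the counts are partly set by the filter. Of the genes named below, *Lepr*, *Gsn*, *Pnpla3*, *Oas1g* and *Id1* entered through DKO alone, and *Fitm1*, *Lhpp* and *Pparg* through the controls alone. The size of the sets rested on single libraries, as 396 lower and 160 higher genes were called without DKO A, 506 and 197 without DKO C, 456 and 180 without control A, and 546 and 190 without control C. The excess of lower genes also rested on the scale. The median log2 difference over all genes was -0.14, and with libraries scaled by their median ratio the calls were 653 lower and 646 higher, while quantile normalization gave 720 and 715. Of the 1598 genes, 1026 were called in the same direction after median ratio scaling.

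**Figure D1:**
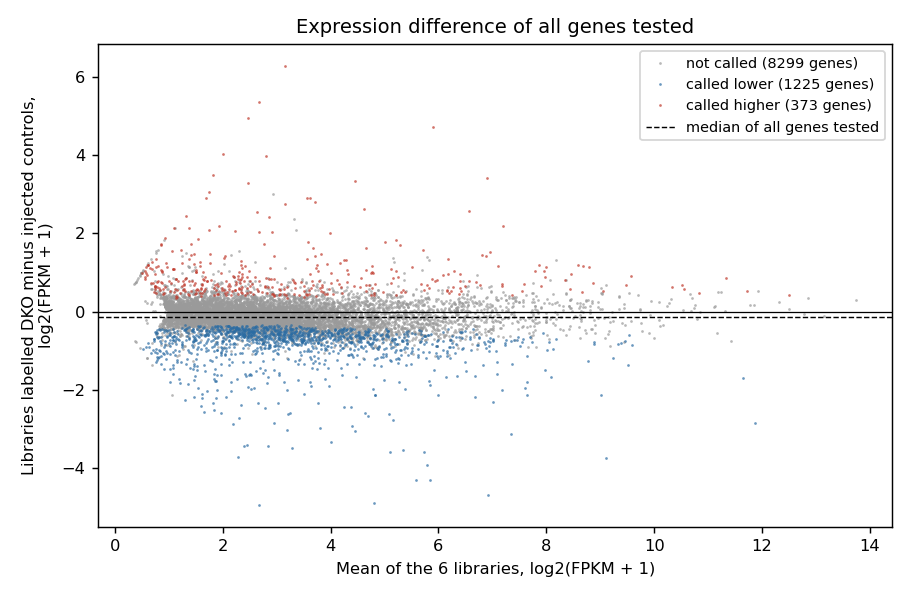
Each point is 1 of the 9897 genes tested, with the mean of the 6 libraries on the x axis and the difference between libraries labelled DKO and injected controls on the y axis, both on the log2(FPKM + 1) scale. The 1225 genes called lower outnumber the 373 called higher, and the dashed line marks the median of all genes at -0.14.

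Few genes were called between injected and uninjected controls, which does not show that these groups were alike. With the uninjected mice as controls, 2879 genes were called in DKO, against 1598 with the injected ones. Between the injected controls and 3 uninjected WT mice of 15 weeks, 5 of 9820 genes (0.0509%) differed and 1237 had an unadjusted p under 0.05. They included *Chka* and *Cyp2f2*, higher after injection, and *Mir6340* and *Snord2*, lower, named after their values were seen. Calls came to 8 after median ratio scaling and to 25 with all assigned libraries in the fit.

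Genes of the perivenous end of the lobule were lower in DKO. Of 27 perivenous and Wnt target genes, 22 were tested. Of these, 16 were lower (72.7%) and 1 was higher (4.55%), against 12.4% and 3.77% of all genes. Their median log2 difference was -1.91 against -0.14 over all genes. *Glul*, which encodes glutamine synthetase of the last cells before the central vein, was at 186, 76.7 and 184 FPKM in controls A to C and 9.76, 11.8 and 11.6 FPKM in DKO A to C, a mean 13.5-fold lower (log2 -3.53, SE 0.327, adjusted p = 0.000637). *Cyp2e1*, the ethanol-oxidising cytochrome P450, was at 2366, 1542 and 2270.4 FPKM against 207, 194 and 85.3 FPKM (-3.74, SE 0.347, adjusted p = 0.000637). Control B was the lowest control for both genes and was still well above every DKO library. *Oat*, ornithine aminotransferase, fell from 264, 126 and 288 FPKM to 11.1, 13.7 and 14.9 FPKM (-3.91, SE 0.305, adjusted p = 0.000319). *Nr1i3*, the gene of the nuclear receptor CAR that turns on drug-metabolising enzymes, varied little within groups, with 33.0, 30.8 and 31.3 FPKM in the controls and 2.01, 1.74 and 2.04 FPKM in DKO (-3.48, SE 0.102, adjusted p = 5.78e-06).

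The glutamate transporter *Slc1a2* was at 30.7, 13.6 and 27.4 FPKM in the controls and 1.15, 1.76 and 0.786 FPKM in DKO (log2 -3.42, adjusted p = 0.000517). *Lhpp*, a phosphatase gene, went from 17.3, 10.5 and 23.6 to 0.583, 0.659 and 0.585 FPKM (-3.43, adjusted p = 0.000219), and *Cyp1a2*, the caffeine-oxidising P450, from 335, 209 and 335 to 66.2, 79.5 and 34.8 FPKM (-2.31, adjusted p = 0.00443). The list also holds genes of the Wnt pathway itself. *Lgr5*, the receptor for R-spondins, was at 1.62, 1.09 and 1.15 FPKM against 0.135, 0.133 and 0.0441 FPKM (-1.04, adjusted p = 0.00275), and *Notum*, a secreted Wnt inhibitor induced by Wnt, at 13.6, 12.9 and 10.7 FPKM against 3.47, 3.57 and 1.67 FPKM (-1.81, adjusted p = 0.00205). *Lect2*, *Rgn* and *Slc13a3* fell by 2.44, 2.00 and 2.18 on the log2 scale. The 1 member that rose was *Rcn2*, which encodes a calcium-binding protein of the endoplasmic reticulum, from 1.90, 1.84 and 1.64 to 4.90, 4.42 and 4.2005 FPKM (0.98, adjusted p = 0.00101). Leaving out any single library gave 13 to 17 lower members, and median ratio scaling 15. Of 20 periportal genes tested, 3 were lower (15%) and 4 higher (20%), against 12.4% and 3.77% of all genes. Their median was -0.11, and 1 was lower without DKO A and 2 were higher without control A. After median ratio scaling 2 were lower and 6 higher. *Cdh1*, E-cadherin, rose from 33.0, 30.7 and 25.6 to 75.0, 65.9 and 61.3 FPKM (1.15, adjusted p = 0.00275), and *Pigr*, the carrier of secreted immunoglobulin A, fell from 383, 338 and 419 to 102, 96.3 and 94.3 FPKM (-1.95, adjusted p = 0.000170). *Cyp2f2*, a periportal P450, was at 1158, 1135 and 1188 FPKM in the controls and 1827, 2093 and 1706 FPKM in DKO (0.69, adjusted p = 0.0134). It also differed between injected and uninjected controls, and its call was lost without DKO A or control A, at log2 differences of 0.70 and 0.69.

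**Figure D2:**
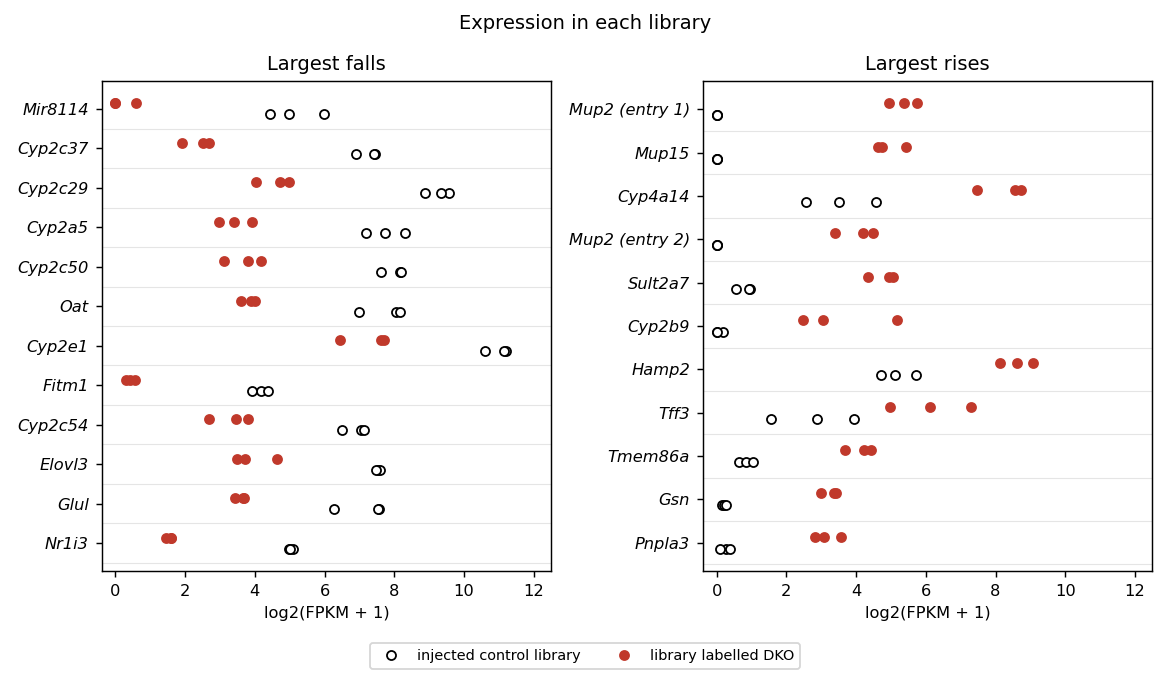
The 12 genes with the largest fall and 11 of those with the largest rise are shown by library, with log2(FPKM + 1) on the x axis, open points for the 3 injected controls and filled points for the 3 libraries labelled DKO. The choice of these genes required the groups to be apart, and Mup2 has 2 entries in the table.

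Cytochrome P450 genes changed in both directions. Of 63 tested, 16 were lower and 17 higher, a median of 0.01. The Cyp2c genes made up 7 of the falls. *Cyp2c29*, an epoxygenase of fatty acids and drugs, was at 761, 469 and 647 FPKM in controls A to C and 25.3, 30.3 and 15.4 FPKM in DKO A to C (log2 -4.69, SE 0.274, adjusted p = 0.000106). *Cyp2c37* was at 173, 117 and 170.2 FPKM against 4.75, 5.43 and 2.75 FPKM (-4.88, adjusted p = 5.12e-05). For *Cyp2c50* the values were 286, 194 and 292 and 13.0, 17.1 and 7.67 FPKM (-4.29, adjusted p = 0.000158), and for *Cyp2c54* 132, 89.3 and 139 and 9.99, 13.0 and 5.46 FPKM (-3.57, adjusted p = 0.000446). *Mir8114*, a microRNA gene (chr1:155747055-155747166), went from 30.4, 20.6 and 62.2 to 1.35e-04, 1.09e-05 and 0.507 FPKM (-4.93, adjusted p = 0.000270), but it overlaps the start of *Glul* (chr1:155747058-155756853), so its reads can be those of *Glul*. The Cyp2c genes are close copies of one another, so their reads can be shared and single values are uncertain. *Cyp2a5*, the coumarin hydroxylase, fell from 209, 144 and 315 to 9.58, 14.2 and 6.86 FPKM (-4.30, adjusted p = 0.000290), and its near copy *Cyp2a4* from 60.6, 42.5 and 93.4 to 4.55, 6.52 and 9.63 FPKM (-3.05, adjusted p = 0.00118).

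The rises among P450 genes included members of the Cyp4a, Cyp3a and Cyp2b families. *Cyp4a14*, a fatty acid omega-hydroxylase, was at 10.4, 22.7 and 4.88 FPKM in the controls and 373, 176 and 425.6 FPKM in DKO (log2 4.71, SE 0.521, adjusted p = 0.00145). *Cyp4a10* was at 35.9, 50.0 and 30.0 against 298, 186 and 218 FPKM (2.57, adjusted p = 0.000637), and *Cyp4a31* at 2.98, 4.04 and 3.00 against 36.7, 24.3 and 34.6 FPKM (2.91, adjusted p = 0.000132). *Cyp4a32* and *Cyp4a12b* rose by 1.84 and 1.03. Of the steroid-metabolising Cyp3a genes, *Cyp3a59* rose from 76.7, 59.9 and 67.4 to 274, 346 and 318 FPKM (2.19, adjusted p = 0.000182). *Cyp2b9* was near 0 in the controls, at 0, 0.126 and 0.0171 FPKM, and at 7.28, 4.62 and 34.8 FPKM in DKO, where DKO C was the highest (3.50, adjusted p = 0.0101). Leaving out single libraries gave 12 to 16 lower and 11 to 17 higher P450 genes, the 11 without DKO A.

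**Figure D3:**
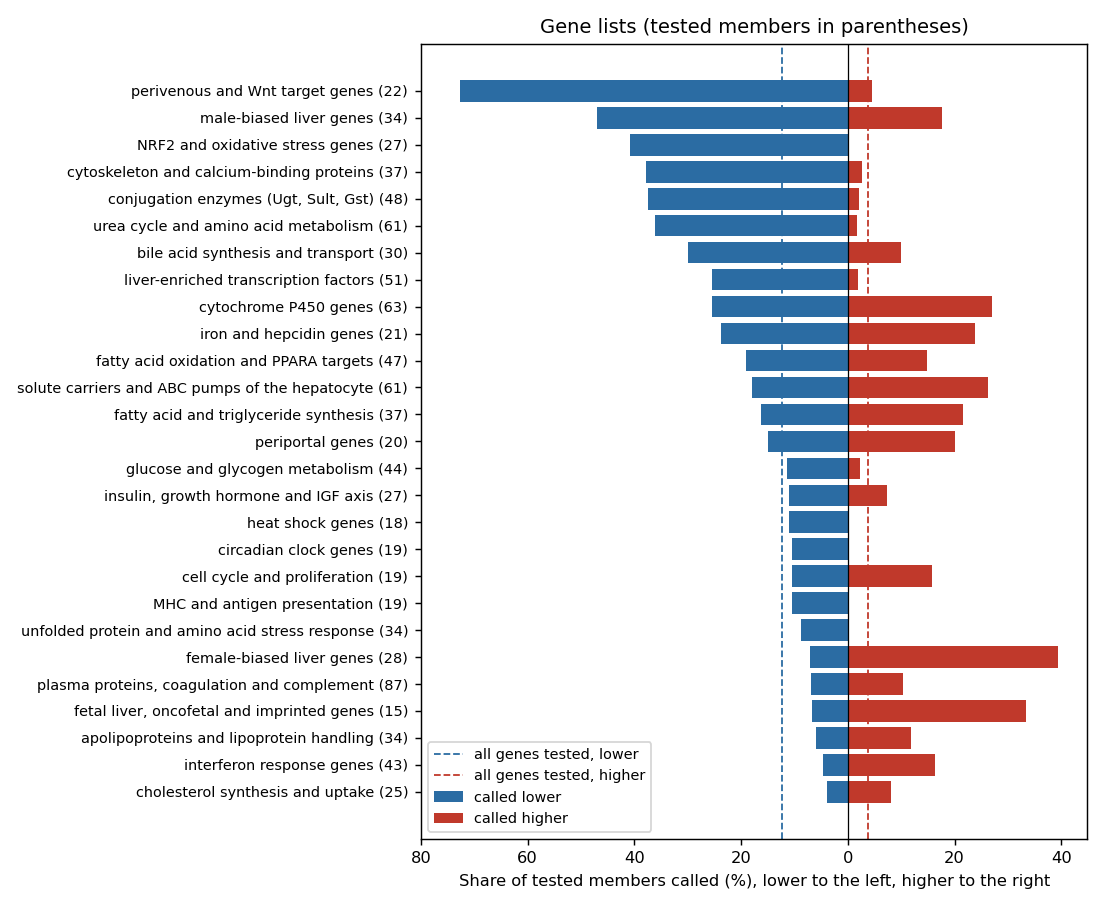
Bars give the share of tested members of each gene list that were called lower (to the left) or higher (to the right), in percent, with the number tested in parentheses and dashed lines at the shares over all genes, 12.4% lower and 3.77% higher. Of the lists drawn, the perivenous one has the largest share of lower members, 72.7%, and the female-biased one the largest share of higher ones, 39.3%.

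Enzymes that conjugate drugs and hormones were lower in 18 of 48 tested (37.5%) and higher in 1 (2.08%), against 12.4% and 3.77% of all genes. The median was -0.20. *Ugt1a5*, a glucuronosyltransferase, was at 18.1, 17.8 and 14.3 FPKM in controls A to C and 0.698, 0.550 and 0.789 FPKM in DKO A to C (log2 -3.39, adjusted p = 1.42e-05), and *Ugdh*, which makes the glucuronic acid donor, at 53.4, 56.1 and 63.6 against 14.8, 19.1 and 15.4 FPKM (-1.76, adjusted p = 0.000378). The exons of Ugt1a genes overlap, so the value of 1 member is uncertain. *Gstp1*, a glutathione transferase and one of the largest falls in FPKM, went from 940.5, 837 and 1553 to 244, 324 and 188 FPKM (-2.12, adjusted p = 0.00336). *Gstm2*, *Gstt3* and the nicotinamide methyltransferase *Nnmt* fell by 2.09, 1.99 and 2.58 on the log2 scale. The member that rose was *Sult2a7*, a sulfotransferase of bile acids and steroids, from 0.479, 0.925 and 0.888 to 19.5, 29.5 and 32.5 FPKM (3.98, adjusted p = 5.12e-05). The lower members were 11 without DKO A and 12 without control A, and 16 after median ratio scaling, where the median of the list was -0.03.

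Genes of the NRF2 and oxidative stress list were lower in 11 of 27 tested (40.7%) and higher in none, against 12.4% and 3.77% of all genes. The median was -0.60. *Aldh3a2*, a fatty aldehyde dehydrogenase, was at 61.1, 48.3 and 62.9 FPKM in the controls and 5.39, 7.25 and 7.57 FPKM in DKO (log2 -2.92, adjusted p = 8.76e-05). *Txnrd1*, thioredoxin reductase, fell by 0.75 and *Hmox1*, heme oxygenase, by 0.95 on the log2 scale. *Mt1* and *Mt2* encode metallothioneins, which bind zinc and respond to glucocorticoids, and both varied between libraries. *Mt1* was at 28.1, 53.3 and 53.9 FPKM in the controls and 3.76, 4.76 and 19.0 FPKM in DKO (-2.44, adjusted p = 0.0238), with DKO C the highest of its group. Its call was lost without DKO A, DKO B or control C, at -2.04, -2.18 and -2.28. *Mt2* fell by 2.46, and its call was lost without DKO A (-2.19). The list had 5 lower members without DKO A, 7 without control A and 7 without control C, and after median ratio scaling 10 lower and 2 higher. Heat shock genes were lower in 2 of 18 tested (11.1%, against 12.4% of all genes). The lower ones were 8 without DKO B, 1 without control B and none without any of the other libraries or after median ratio scaling. Genes of the unfolded protein and amino acid stress response were lower in 3 of 34 (8.82%), also under the share of all genes. The lower ones were 1 without DKO C or control C and none without DKO A or control A. After median ratio scaling 2 genes of this response were lower and 2 higher, and after quantile normalization 3 and 5.

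Of 61 genes of the urea cycle and amino acid metabolism tested, 22 were lower (36.1%) and 1 was higher (1.64%), with a median of -0.46. Over all genes the shares were 12.4% and 3.77%. *Prodh*, proline dehydrogenase, was at 73.0, 58.2 and 63.2 FPKM in controls A to C and 9.34, 9.52 and 8.94 FPKM in DKO A to C (log2 -2.68, adjusted p = 4.38e-05). *Csad*, which acts in taurine synthesis, was at 118, 141 and 116 against 38.7, 40.0 and 37.4 FPKM (-1.66, adjusted p = 0.000332). *Glul*, *Oat* and *Slc1a2*, given above, are also members. In contrast, *Cps1*, the first enzyme of the urea cycle, was at 1159, 1216 and 1055 FPKM and 1482, 1284 and 1510.0 FPKM (0.32, adjusted p = 0.119), *Ass1* had -0.55 (adjusted p = 0.0996) and *Arg1* -0.33 (adjusted p = 0.285). The number of lower members was 7 without DKO A, 11 without DKO C and 10 without control A or without control C. After median ratio scaling, 12 were lower and 5 higher.

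Bile acid genes were lower in 9 of 30 tested (30%) and higher in 3 (10%), against 12.4% and 3.77% of all genes, with a median of -0.26. *Cyp8b1*, the sterol 12-alpha-hydroxylase that sets the share of cholic acid, was at 243, 207 and 203 FPKM in the controls and 53.0, 38.2 and 52.1 FPKM in DKO (log2 -2.18, adjusted p = 0.000315). *Cyp7b1* of the alternative pathway, which the study names, was at 116, 87.6 and 125 against 34.3, 32.1 and 21.5 FPKM (-1.88, adjusted p = 0.00167). *Slc10a2*, an apical bile acid transporter, fell from 10.1, 10.7 and 10.9 to 0.575, 1.56 and 1.73 FPKM (-2.38, adjusted p = 0.000472). The basolateral transporter *Slc10a1* went the other way, from 269, 241 and 252 to 558, 608 and 579 FPKM (1.19, adjusted p = 0.00100), as did *Cyp39a1*, an oxysterol hydroxylase, from 7.20, 8.28 and 6.82 to 21.7, 24.7 and 21.3 FPKM (1.48, adjusted p = 0.000378). *Cyp7a1*, the rate-limiting enzyme of bile acid synthesis, varied widely, with 21.0, 7.99 and 3.50 FPKM in the controls and 7.02, 10.7 and 1.75 FPKM in DKO, and did not pass the test (-0.60, adjusted p = 0.541). *Cyp7a1* passed with uninjected controls. Lower members were 4 without DKO A, 4 without DKO C, 3 without control A and 5 without control C. After median ratio scaling, 9 were lower and 5 higher.

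In lipid metabolism, the fatty acid and triglyceride synthesis list had 6 lower (16.2%) and 8 higher (21.6%) of 37 tested, with a median of 0.14. Over all genes the shares were 12.4% and 3.77%. *Fitm1*, which encodes a protein of lipid droplet formation, was at 17.0, 14.2 and 19.6 FPKM in the controls and 0.486, 0.335 and 0.239 FPKM in DKO (log2 -3.72, adjusted p = 1.42e-05). *Elovl3*, an elongase of long saturated fatty acids that is higher in male liver, fell from 182, 190.5 and 176 to 23.9, 12.2 and 10.3 FPKM (-3.57, adjusted p = 0.000315). The elongases *Elovl2*, *Elovl5* and *Elovl6* rose by 1.20, 1.15 and 1.31. *Pnpla3*, a lipase gene induced by feeding, rose from 0.195, 0.304 and 0.0623 to 6.05, 7.48 and 10.8 FPKM (2.91, adjusted p = 0.000153), whereas *Thrsp*, also induced by feeding, fell from 210.1, 216 and 209 to 89.7, 84.9 and 84.5 FPKM (-1.29, adjusted p = 0.000624). *Fasn*, fatty acid synthase, had overlapping libraries (0.23, adjusted p = 0.587). Median ratio scaling gave 4 lower and 11 higher. The higher members were 4 without DKO A, DKO C, control A or control C, and 5 without control B.

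Fatty acid oxidation and PPARA target genes were lower in 9 (19.1%) and higher in 7 (14.9%) of 47 tested, against 12.4% and 3.77% of all genes. The acyl-CoA thioesterases *Acot1* and *Acot2* fell, *Acot1* from 7.22, 8.13 and 8.25 to 0.913, 0.810 and 1.18 FPKM (log2 -2.17, adjusted p = 5.12e-05) and *Acot2* by 1.23. *Cd36*, a fatty acid transporter, rose from 8.35, 5.98 and 6.79 to 21.0, 22.7 and 17.4 FPKM (1.42, adjusted p = 0.00131). The Cyp4a genes given above are PPARA targets as well, so members of the list moved in opposite directions. After median ratio scaling the list had 5 lower and 8 higher members. The lower members were 3 without DKO A or control A and 4 without control C, and the higher ones 4 without DKO A and 3 without DKO C or control A. Of 25 genes of cholesterol synthesis and uptake, 1 was lower (4%) and 2 were higher (8%). After median ratio scaling these were 0 and 4, and no call was made without DKO A, DKO C, control A or control C. Glucose and glycogen genes were lower in 5 (11.4%) and higher in 1 (2.27%) of 44 tested, against 12.4% and 3.77% of all genes. After median ratio scaling 2 were lower and 3 higher. Before scaling, 1 was lower without DKO A, control A or control C and 3 without DKO B or DKO C. Of the gluconeogenic genes, *G6pc* (0.68, adjusted p = 0.201) and *Pck1* (-0.67, adjusted p = 0.129) did not pass. *Pck1* passed only without DKO C. *Lpl*, lipoprotein lipase, which is shut off in adult hepatocytes, rose from 2.30, 1.61 and 3.72 to 22.1, 23.4 and 20.4 FPKM (2.74, adjusted p = 0.000278).

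The libraries were of male pattern. Of 34 male-biased genes tested, 16 were lower (47.1%) and 6 higher (17.6%), against 12.4% and 3.77% of all genes. Their median was -0.56. With the genes left out of the test kept, most of them Mup genes, there were 48 with 16 lower and 19 higher (median 0.13). Of 28 female-biased genes, 2 were lower (7.14%) and 11 higher (39.3%), with a median of 0.21. Some entered the test through DKO alone, as *Sult2a7* and *Cyp2b9* did, so the number of higher ones is partly set by the filter. With no filter on low values, 2 of 40 were lower and 9 higher. The female-biased *Sult2a7*, *Cyp2b9* and *Cyp4a14* are given above, and *Cyp2a4*, also female-biased, fell. On the male side, *Hsd3b5*, a steroid dehydrogenase, fell from 113, 71.0 and 97.4 to 18.5, 9.76 and 11.4 FPKM (-2.76, adjusted p = 0.000639), and *Srd5a1*, steroid 5-alpha-reductase, by 1.66 on the log2 scale. *Mup20*, which encodes the urinary pheromone darcin, was at 8515, 8173 and 14254 FPKM against 1508, 1693 and 1039.9 FPKM (-2.85, adjusted p = 0.000637). Leaving out single libraries gave 14 to 17 lower male-biased and 9 to 11 higher female-biased genes, and 4 to 6 higher male-biased ones, with 4 without DKO A or control A.

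The Mup genes are near-identical copies, and several were given at exactly 0 in the controls. *Mup2*, in 1 of its entries, was listed at 0 in all 3 controls and at 40.8, 52.9 and 29.7 FPKM in DKO A to C, and *Mup15* at 0 and at 24.0, 42.0 and 25.8 FPKM. The 16 genes left out of the test were Mup genes, *Gm2083* and *LOC100048884*, listed at 0 in at least 2 controls and at 68.9 to 296 FPKM in DKO. *Mup17*, at 0 in controls A and C, was at 4832 FPKM in control B. How the authors' counting divided reads among these copies was not tested, so the direction of single Mup genes, *Mup20* included, is uncertain.

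Of 27 genes of the insulin, growth hormone and IGF axis, 3 were lower (11.1%) and 2 higher (7.41%), against 12.4% and 3.77% of all genes. After median ratio scaling 1 was lower and 2 were higher. The lower ones were 1 without DKO A, DKO B or control A, and the higher ones 0 without DKO C, 1 without control A and 4 without control B. *Igfbp2* fell from 128, 149 and 191 to 61.1, 47.8 and 50.7 FPKM (log2 -1.52, adjusted p = 0.00208), and *Lepr*, the leptin receptor, rose from 0.0604, 0.0911 and 0.0326 to 1.08, 0.667 and 1.72 FPKM (0.99, adjusted p = 0.0136). *Lepr* entered the test through DKO alone, so the number of higher genes is partly set by the filter. *Socs2*, a feedback inhibitor induced by growth hormone, was at 2.41, 5.33 and 1.36 FPKM in the controls and 8.36, 20.3 and 16.4 FPKM in DKO (2.03, adjusted p = 0.0181), a call lost without DKO C (1.93) or control A (1.97). *Stat5b*, the transducer of the male pattern, fell by 0.57 (adjusted p = 0.0447), and was called without DKO C but not without any of the other 5 libraries, with log2 differences of -0.64 to -0.45. Its call was also lost after median ratio scaling, after quantile normalization, with uninjected controls and with no filter on low values.

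Transcription factors of the liver were lower in 13 of 51 tested (25.5%) and higher in 1 (1.96%), against 12.4% and 3.77% of all genes. The median was -0.27. Beside *Nr1i3*, *Pparg*, a lipogenic nuclear receptor, was at 3.16, 2.01 and 2.16 FPKM in the controls and 0.284, 0.242 and 0.154 FPKM in DKO (log2 -1.47, adjusted p = 0.000934). *Cebpd* was at 2.47, 3.32 and 2.68 against 0.603, 0.754 and 0.625 FPKM (-1.20, adjusted p = 0.000934), and *Nr5a2*, which acts in bile acid synthesis, fell by 0.72. *Hnf4a*, a master regulator of hepatocytes, was at 112, 127 and 140 FPKM in the controls and 63.9, 76.2 and 106 FPKM in DKO. It did not pass the test (-0.64, adjusted p = 0.0675), but did with all assigned libraries in the fit, with uninjected controls and without DKO C. *Onecut1*, which encodes HNF6, was at 3.73, 9.76 and 0.714 FPKM in the controls and 46.2, 14.02 and 15.6 FPKM in DKO, with all DKO libraries above the controls, and did not pass either (2.36, adjusted p = 0.0530). *Onecut1* passed among genes of at least 5 FPKM, after quantile normalization and without control B. Lower factors were 7 without DKO A and 8 without DKO B, DKO C, control A or control C, and 8 after median ratio scaling.

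Genes of the fetal liver and imprinted genes were mostly under 1 FPKM, so 15 of 49 were tested. Of these, 5 were higher (33.3%) and 1 was lower (6.67%), against 3.77% and 12.4% of all genes. The filter let a gene in through either group, and *H19*, given next, and *Peg3*, with a control mean of 0.974 FPKM, entered through DKO alone. The number of higher members is thus partly set by the filter. *H19*, an imprinted RNA of the fetal liver, was at 0, 0.0390 and 0.0140 FPKM in the controls and 2.49, 4.81 and 3.32 FPKM in DKO (log2 2.13, adjusted p = 0.000475), against 3180 FPKM in the WT library of 1 week. *Tff3*, a trefoil factor, was at 6.32, 1.96 and 14.2 FPKM against 68.9, 157 and 30.4 FPKM (3.34, adjusted p = 0.0211), with a wide spread in both groups and no call without DKO A (3.35) or control A (3.39). The higher members were 2 without DKO A or control A and 3 without DKO C, and 6 after median ratio scaling, which left none lower. In the cell cycle list, 3 were higher (15.8%) and 2 lower (10.5%) of 19 tested, and *Myc* rose from 2.10, 9.82 and 2.62 to 27.8, 56.0 and 24.1 FPKM (2.80, adjusted p = 0.0119). The 3 higher members stayed 3 without any 1 library, and the lower ones were 0 without DKO C or control C and 1 without DKO A or control A.

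Among called genes, the 3 with the largest rises in FPKM encode secreted proteins. *Sepp1*, a selenium carrier, was at 1764, 1794 and 2248 FPKM in the controls and 3168, 4034 and 3293 FPKM in DKO (log2 0.85, adjusted p = 0.0126), a call lost without control A (0.79). *Ahsg*, fetuin A, was at 4941, 4728 and 5434 against 6437, 7409 and 6434 FPKM (0.42, adjusted p = 0.0493), and *Fgg*, the fibrinogen gamma chain, at 3198, 2679 and 2594 against 3684, 4629 and 3987 FPKM (0.54, adjusted p = 0.0430). Both were above the controls in each DKO library, and neither was called when any 1 library was left out, at log2 differences of 0.36 to 0.48 and 0.45 to 0.63. *Serpina6*, corticosteroid-binding globulin, rose from 73.0, 60.6 and 66.7 to 144, 232 and 189 FPKM (1.46, adjusted p = 0.00320), and *Serpina7* and *Serpina12* fell by 1.93 and 2.34. Of 87 plasma protein genes tested, 6 were lower (6.90%) and 9 higher (10.3%), and median ratio scaling gave 6 lower and 26 higher. The higher ones were 2 without DKO A, 3 without DKO C, control A or control C and 5 without control B, and the lower ones 3 without DKO A. Of 34 apolipoprotein and lipoprotein genes tested, 2 were lower (5.88%) and 4 higher (11.8%), after median ratio scaling 2 and 10. The lower ones were 4 without DKO B and 1 without DKO A or control A, and the higher ones 2 without control A. The clock genes and the genes of antigen presentation had 2 lower members each of 19 tested, or 10.5%, and none higher. Over all genes tested, 12.4% were lower and 3.77% higher, so neither list was above those shares. Leaving out single libraries gave 0 to 2 lower clock genes and 0 to 4 lower genes of antigen presentation.

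Iron genes were lower in 5 and higher in 5 of 21 tested (23.8% each), against 12.4% and 3.77% of all genes. The numbers were 1 and 7 after median ratio scaling and 2 and 8 after quantile normalization. The higher ones were 1 without DKO A and 3 without DKO C, and the lower ones 1 without DKO A or control A, 2 without DKO C or control C and 3 without DKO B or control B. *Hamp2*, a copy of the hepcidin gene, was at 52.0, 34.0 and 25.0 FPKM in controls A to C and 276, 533 and 391 FPKM in DKO A to C (log2 3.41, adjusted p = 0.000637), while *Hamp* itself did not pass (0.80, adjusted p = 0.0926). *Hamp* passed only without control A. The copies share sequence, so reads may have been divided between them. *Id1*, a target of BMP signalling like hepcidin, was at 0.688, 0.754 and 0.932 against 10.98, 2.68 and 11.2 FPKM (2.18, adjusted p = 0.0162), and was not called without DKO A, DKO C or control A, at 1.90, 1.89 and 2.14. Interferon response genes were higher in 7 (16.3%) and lower in 2 (4.65%) of 43 tested, with *Oas1g* at 0.544, 0.547 and 0.931 against 3.30, 5.26 and 2.61 FPKM (1.47, adjusted p = 0.00456). The higher ones were 3 without DKO A or control A, and the lower ones 0 without DKO A, 6 without DKO B and 5 without control B, so the balance of the list rested on single libraries. Of 37 genes of the cytoskeleton and calcium-binding proteins, 14 were lower (37.8%) and 1 was higher (2.70%), and after median ratio scaling 8 and 2. The lower ones were 3 without DKO A and 4 without DKO C, control A or control C, and the list holds genes of non-parenchymal cells, some of whose markers were lower in DKO. Annexin genes *Anxa2* and *Anxa5* fell by 1.03 and 1.23. The 1 rise was *Gsn*, gelsolin, an actin-severing protein, from 0.116, 0.160 and 0.206 to 6.98, 9.80 and 9.35 FPKM (3.05, adjusted p = 3.28e-05). *Gsn* entered the test through DKO alone.

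Membrane transporters of the hepatocyte were lower in 11 and higher in 16 of 61 tested, and after median ratio scaling in 9 and 21. *Slc3a1*, a subunit of an amino acid carrier, was at 77.8, 72.4 and 61.7 FPKM in the controls and 19.4, 19.0 and 20.7 FPKM in DKO (log2 -1.79, adjusted p = 0.000255). The organic anion transporter *Slc22a7* fell by 1.61. *Slc25a30*, a mitochondrial carrier, rose from 6.18, 9.66 and 5.51 to 34.9, 20.9 and 41.3 FPKM (2.02, adjusted p = 0.00392), and the water channel *Aqp4* by 1.37. Higher members were 8 without DKO A, 9 without DKO C, control A or control C, and 10 without control B. Of the genes the study names, *Scp2*, a sterol carrier, was at 998, 874 and 1288 against 516, 627 and 576 FPKM (-0.86, adjusted p = 0.0182) and *Fto* at 7.13, 6.27 and 8.32 against 4.07, 4.45 and 5.46 FPKM (-0.54, adjusted p = 0.0388). *Scp2* was not called without DKO A, DKO C or control A (-0.79, -0.87 and -0.89), and *Fto* not without DKO A, DKO B, control A or control C (-0.47, -0.52, -0.55 and -0.45). The call of *Fto* was also lost after median ratio scaling and quantile normalization, and both calls with no filter on low values. *Gpd2* (0.12, adjusted p = 0.555), *Gsk3b* (0.02, adjusted p = 0.890), *Insr* (0.14, adjusted p = 0.591) and *Lpin1* (-0.91, adjusted p = 0.534) did not pass.

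The called genes were then set beside the methylation of their DNA, which took no part in the choice. Of 8049849 tiles with a value in all 3 WGBS libraries, 131337 were at least 35 points lower in the adult than in the newborn, and 92706 of these (70.6%) were also at least 35 points higher in DKO than in the adult. Such a kept tile was sought within the gene or up to 1 kb past its end. The 701 genes without a known strand were read without this 1 kb. It was found for 918 of 1205 genes called lower (76.2%), 231 of 365 called higher (63.3%) and 5080 of 8060 not called (63.0%). The kept tiles were 8405 of 202549 in genes called lower, 1554 of 44870 in genes called higher and 37254 of 1289769 in genes not called, with a median of 87, 74 and 83 tiles per gene. The shares among genes of at least 5 FPKM, an alternative chosen after seeing the data, were 79.4%, 69.4% and 67.1%. A kept tile from 1 kb before to 100 bases after the start was found in 13.6%, 13.8% and 7.11% of the genes. WGBS has 1 library per group, so these shares have no replicate check.

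The level at the tiles was alike in all sets. Over tiles demethylated after birth, the mean was 77.2% in the newborn, 22.7% in the adult and 77.0% in DKO in genes called lower, 76.2%, 23.2% and 75.4% in genes called higher, and 76.7%, 23.9% and 77.0% in genes not called. Retained methylation was thus also present at genes whose expression did not pass the test. Single genes differed in how many tiles they held. Of the tiles demethylated after birth, *Cyp8b1* kept 12 of 12, *Prodh* 18 of 21, *Cyp2e1* 10 of 14, *Nr1i3* 6 of 6 and *Glul* 2 of 2, while *Cyp4a14*, *Lpl*, *H19*, *Tff3* and *Tmem86a*, all of which rose, had no such tile. *Cyp2b9*, which rose too, kept 10 of 11.

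Open chromatin was measured by ATAC-Seq in 2 WT and 2 DKO libraries. Of 35614 peaks shared by the WT libraries, 2614 (7.34%) overlapped no peak of either DKO library. Within 10 kb of the genes, 10.1% of the WT peaks were lost at genes called lower, 5.46% at genes called higher and 5.81% at genes not called. At least 1 lost peak was found at 21.2%, 11.5% and 12.1% of these genes. Peaks gained in DKO numbered 6.71, 8.78 and 7.20 per 100 WT peaks. The share of lost peaks was thus largest at the genes called lower, and gains were spread over all sets. The peaks were called in each library by the authors, from 80940128 and 90249422 tags in DKO and 73946606 and 54164080 in WT, and no test was made over these libraries.

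**Figure D4:**
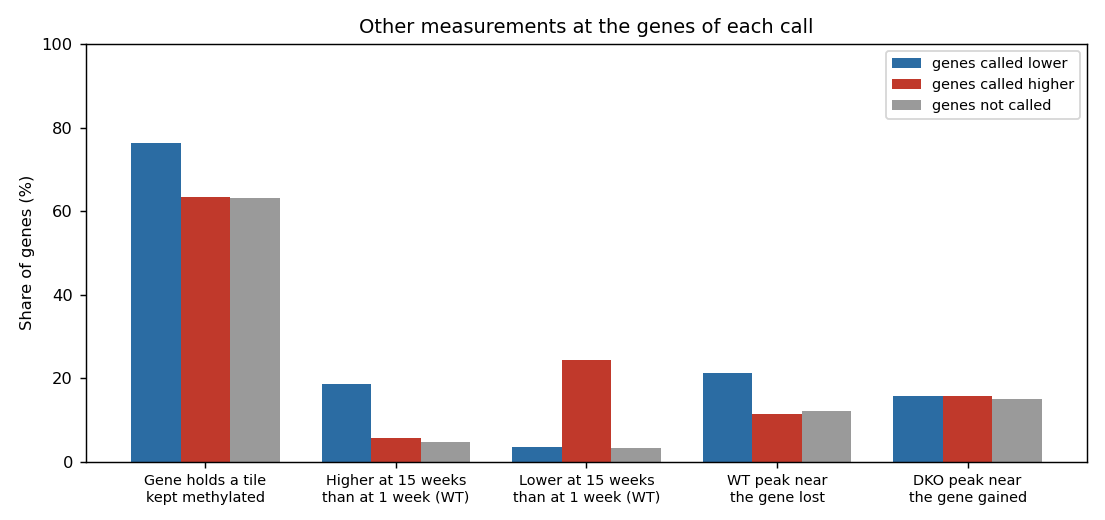
Bars give the share of genes in percent, for genes called lower, called higher and not called, with the measurement below each group of bars. Genes called lower had a kept tile in 76.2% and were higher at 15 weeks than at 1 week in 18.7%, while genes called higher were lower at 15 weeks in 24.4%.

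Promoter letters were counted as a description. RefSeq promoters of GRCm38.p6, from 250 bases before to 50 after the start, were matched by symbol for 7357 genes and read on both strands. The TCF/LEF letters ATCAAAG were in 2.48% of promoters of genes called lower, 1.67% of those called higher and 2.45% of all. The STAT5 letters TTCNNNGAA were in 5.62%, 8.33% and 6.76%, and TATAAA in 9.83%, 8.75% and 7.16%. None of these letter strings contains another.

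Genes that change with age in WT hepatocytes were compared with those changed in DKO. The comparison used 1 WT library of 1 week, the only column of the table matched to that group, and 3 uninjected ones of 15 weeks, none of which enters the comparison of DKO with controls. At 1 week, 1 entry of the globin gene *Hba-a1* was at 676 FPKM and the neutrophil gene *S100a9* at 24.9 FPKM. At 15 weeks they were at most at 0.0939 and 0.0614 FPKM. The erythroid *Alas2* went the other way, at 17.5 FPKM against 40.0 to 45.6 FPKM. What part of the change with age came from other cells was not tested. A gene was taken as higher or lower with age when every 15 week library differed by at least 1 log2 unit from the 1 week library. Among genes called lower in DKO, 229 of 1225 (18.7%) were higher with age, against 4.69% of genes not called and 6.46% of all. Among genes called higher in DKO, 91 of 373 (24.4%) were lower with age, against 3.35% of genes not called and 4.15% of all. The opposite pairings were 3.43% and 5.63%. Genes called lower in DKO thus had the larger share of genes that come up after birth, and genes called higher the larger share of those that go down, without a test, as 1 week has 1 library.

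The levels of these genes are given as a description, since the choice of the genes fixed on which side of the 15 week level DKO lay. For the 229 genes, the median log2(FPKM + 1) was 1.87 at 1 week, 2.80 at 3 weeks, 4.56 at 15 weeks, 4.50 in the injected controls and 3.15 in DKO, and 143 of them were nearer to the 1 week library in DKO. For the 91 genes it was 3.82, 2.72, 1.45, 1.34 and 2.48, with 44 nearer to the 1 week library. The 3 week WT libraries held 48.0 to 77.1 FPKM of *Xist* and almost no Y-linked expression, the female pattern, so age and sex cannot be told apart in them.

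Individual genes did not all follow this order. *Cyp2c29* was at 0.519 FPKM at 1 week, 895 to 957 FPKM at 15 weeks and 15.4 to 30.3 FPKM in DKO, and *Elovl3* was listed at 0 at 1 week, at 57.2 to 154 FPKM at 15 weeks and at 10.3 to 23.9 FPKM in DKO. *Cyp2c29* was thus above its 1 week value in DKO. A value listed at 0 can be a failed estimate, so none is read from the 1 week value of *Elovl3*. *Cyp2e1*, at 958 FPKM at 1 week, *Glul*, at 136 FPKM, and *Nr1i3*, at 82.8 FPKM, were below that level in DKO, where the highest values were 207, 11.8 and 2.04 FPKM. *Gsn*, at 44.7 FPKM at 1 week and at most 0.319 FPKM at 15 weeks, reached 9.80 FPKM in DKO.

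**Figure D5:**
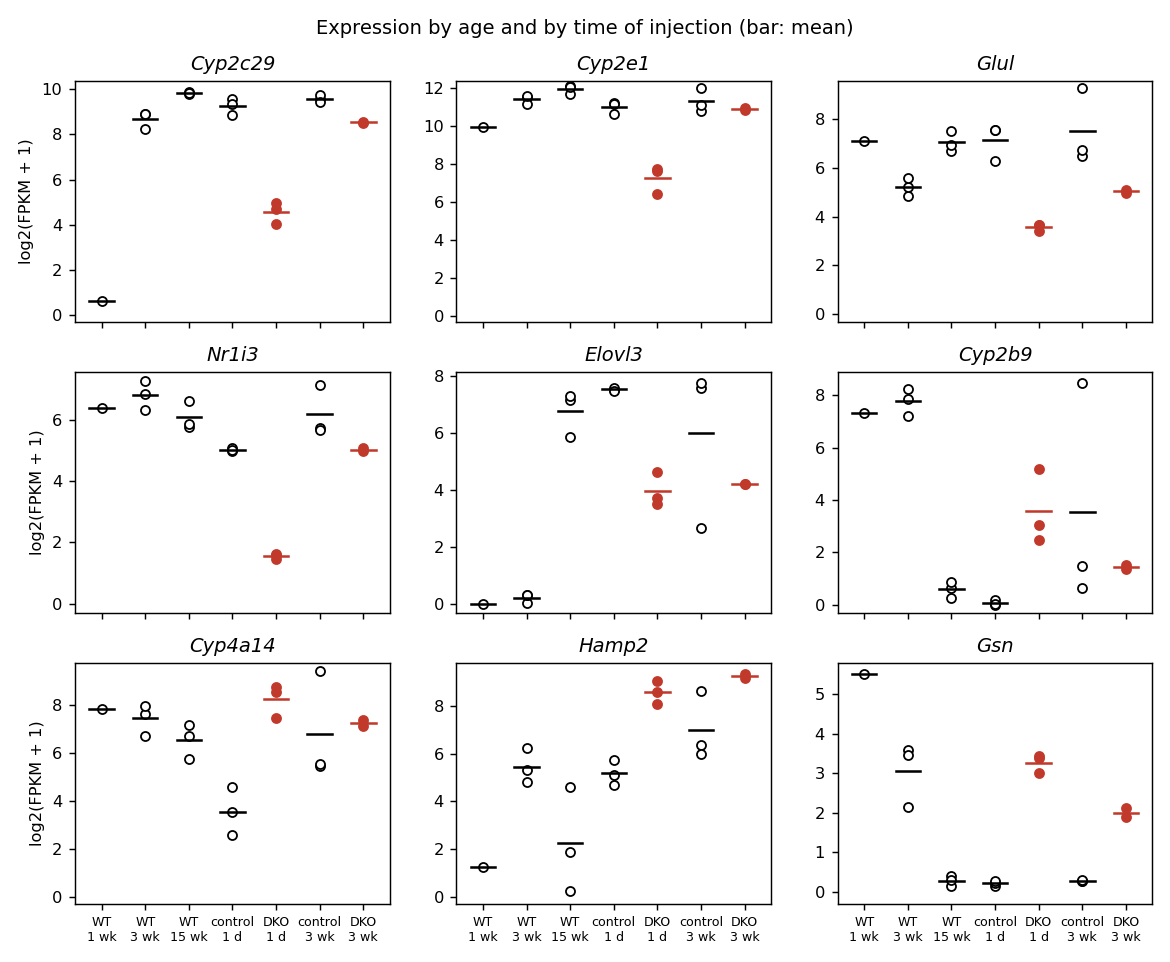
For 9 named genes, each point is a library and each bar a mean, with log2(FPKM + 1) on the y axis. WT mice of 1, 3 and 15 weeks are followed by controls and DKO injected at 1 day and at 3 weeks, all taken at 15 weeks; the 3 week WT libraries and 1 of the 3 week controls have the female pattern.

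Deletion at 3 weeks gave another set of libraries, with its own controls and the same age at collection. In 3 controls and 2 DKO libraries, 37 of 9984 genes (0.371%) were lower and 16 (0.160%) higher. Of the 1211 genes called lower after deletion at 1 day and tested in both, 27 were called lower here and 1 was called higher, with a median log2 difference of -0.16. Of 330 genes called higher, 11 were called higher and none lower, with a median of 0.05, and over all 9707 genes the median was -0.08. The difference between the times of deletion was not tested. One control injected at 3 weeks held 88.1 FPKM of *Xist* and no Y-linked expression, whereas the other 4 libraries had the male pattern. Without that library, an alternative chosen after seeing the data, 186 of 9941 genes (1.87%) were lower and 52 (0.523%) higher. Then 107 of 1214 genes called lower after deletion at 1 day were lower at 3 weeks, and 33 of 329 called higher were higher. *Tmem86a* and *Gsn* were called in the comparison with all 5 libraries. *Tmem86a*, an enzyme gene of plasmalogen breakdown, was at 8.74 and 16.6 FPKM after deletion at 3 weeks and at 0.443 to 0.593 FPKM in those controls (log2 3.10, adjusted p = 0.0253), and after deletion at 1 day it was at 11.9, 17.6 and 20.6 FPKM against 0.549, 0.785 and 1.07 FPKM (3.28, adjusted p = 0.000130). *Glul* was at 29.9 and 33.3 FPKM after deletion at 3 weeks against 89.0, 103 and 606 FPKM, the last in the library of female pattern (-2.46, adjusted p = 0.144).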

How the data were processed

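Libraries of 50 bp single-end reads were made from sorted hepatocytes. According to the sources, the authors trimmed reads with cutadapt 1.15, aligned them to mm9 with TopHat2 and computed expression with Cufflinks, and the deposited table holds FPKM per gene. Methylation values deposited by the authors are the methylated fraction of CpG readings in each 200 bp tile of WGBS, trimmed with Trim Galore 0.3.3 and aligned with BSMAP 2.74, from tiles covered by at least 15 CpG readings, and are given here in percent. ATAC-Seq reads were aligned with Bowtie2 2.2.4, and the authors called peaks with HOMER in each library, whose deposited signal per peak was not used. The expression table has 24 columns of samples, of which 18 were used and 6 were not used.

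Differences between 3 DKO and 3 control libraries were tested by limma 3.58.1 in R 4.3.3 (moderated, with a trend) on log2(FPKM + 1), which understates changes of low genes, among genes whose mean reached 1 FPKM in a group. P-values were adjusted by Benjamini-Hochberg over all 9897 genes and called under 0.05. An exact permutation test of 3 against 3 libraries cannot go below 0.10, so none was used. Depth in reads is not given by FPKM values. The limma step was tested on simulated data. Other values were computed with Python 3.11.15, pandas 2.3.3 and numpy 2.4.6, and sequences were read with samtools 1.23.1.

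Genes named are Tet genes, the 12 largest rises and falls, the 6 largest rises and falls in FPKM, up to 4 called members of each list by adjusted p, with defining members not called, and those the study names. Some items that the rule names are not reported here. Others were named after their values were seen, as examples. The members and the gene lists were chosen with earlier results of these data known. Alternatives changed the pseudocount, filter, scaling, model, controls and each library in turn.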

Additional observations from a re-analysis of the deposited data

How the results depend on the processing

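Against 1598 changed genes (1225 lower, 373 higher), no filter on low values gave 781 lower. Median ratio scaling gave 653 lower and 646 higher and quantile normalization 720 and 715, while the uninjected 15 week WT as controls gave 2879 changed genes, 2191 lower and 688 higher. Leaving out 1 library gave 556 to 1625 changed, 396 to 1255 lower and 160 to 370 higher genes. The 5 genes different between injected and uninjected mice became 8 after median ratio scaling and 25 with all assigned libraries in the fit. The 53 genes called after deletion at 3 weeks became 658 with all assigned libraries and 238 without the control library of female pattern. At 0.5 log2 units instead of 1, 34.5% of the genes called lower were higher with age, in place of 18.7%, and 11.5% of those called higher, in place of 5.63%. The cause of these changes was not tested. Of 157 genes picked by the naming rule or as examples, 103 kept their direction and side of the threshold, 96 of them called. This was read over those of the 16 settings in which a gene was tested, which were not all 16 for every gene. Those that changed sign were not called in the main fit or where their sign changed. With uninjected controls Gpd2 had -0.21, Gsk3b -0.22 and Tet3 -0.29. Over the fits without 1 library, Cyp7a1 had -1.14 to 0.0078, the latter without DKO C (0.00049 without control A), Gpd2 -0.00087 (without DKO C) to 0.25, and Gsk3b -0.010 (without control C) to 0.056, with -0.0065 without DKO C. No paired analysis was possible because the columns of the table carry no replicate numbers. Read counts were not given, so what depth limits was not worked out.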
